A study of Homo sapiens with 24 samples.

Results

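The genes described here are 8 oncogenes and signalling genes whose promoters have published G-quadruplexes: MYC, HRAS, KIT, VEGFA, BCL2, HIF1A, SRC and PDGFA. They were taken by symbol from the gene count tables of an RNA-seq experiment, and each of the 8 was listed among the 28277 genes in both tables. The cells were PEO1 and PEO4, high-grade serous ovarian adenocarcinoma lines of the same patient, PEO1 derived before and PEO4 after resistance to chemotherapy that included cisplatin. One table held untreated PEO1 A, which is BRCA2-deficient, and untreated PEO4 A, in which BRCA2 function is restored, both with the genotype label WT. The other table held PEO1BRCA+ (labelled PEO1 B, genotype BRCA2+, a derivative of PEO1 in which BRCA2 was regained by spontaneous reversion) and PEO4 B (genotype WT). The B cells were untreated or incubated with pyridostatin (PDS) at 5 µM for 2 or 6 h before RNA extraction. That gave 8 conditions with 3 biological replicates each, 24 libraries in all. All of the B cells thus carried functional BRCA2, and the medium of the A pair had added sodium pyruvate whereas that of the B pair did not. Each drug state was thus represented by 1 line.

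A G-quadruplex (G4) is a nucleic acid structure in which runs of guanines fold into stacked planar quartets, held by Hoogsteen hydrogen bonds around a potassium ion. Guanine-rich stretches just upstream of many growth-control genes fold in this way in vitro, and promoter G4s have been studied both as binding platforms for transcription factors and as obstacles to transcription. PDS is a small molecule that binds G4s and stabilises them. The members span the route from a growth signal to cell survival: VEGFA and PDGFA encode secreted growth factors, KIT a receptor tyrosine kinase, SRC and HRAS a tyrosine kinase and a GTPase that relay receptor signals, MYC and HIF1A transcription factors of growth and of the hypoxia response, and BCL2 an inhibitor of apoptosis.

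Guanine runs near the start are what a promoter G4 is built from, so the promoter DNA is shown first. RefSeq promoter windows (GRCh38.p14, 300 bases, from 250 before to 50 after a transcript start) were matched by symbol to 5 members, which had 9 windows in all. MYC, VEGFA and SRC had no window. Each window was searched on both strands for at least 4 runs of at least 3 guanines (GGG) separated by 1 to 7 bases of any kind. Of the 9 windows 6 held this pattern (66.7%), against 25.0% of the 35116 windows of that length in the reference table. Since the members were chosen for published promoter G4s, this share restates the choice, and PDGFA supplied 4 of the 9 windows and 3 of the 6 with the pattern. Those 6 belonged to KIT, PDGFA, HIF1A and HRAS, and the BCL2 window held none. The pattern lay on the gene strand in KIT and in a single PDGFA window, which 14.4% of all windows had. Below are the 150 bases before the start in the windows of KIT, PDGFA and HIF1A, 5′ to 3′ on the gene strand, with the guanine runs and the loops between them in capitals; in HIF1A the runs are on the opposite strand and so read as cytosines.
KIT, chr4:54657807-54657956, + strand: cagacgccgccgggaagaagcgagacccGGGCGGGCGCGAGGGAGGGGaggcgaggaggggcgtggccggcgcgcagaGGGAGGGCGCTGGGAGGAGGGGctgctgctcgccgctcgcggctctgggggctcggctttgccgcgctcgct
PDGFA, chr7:519847-519996, - strand: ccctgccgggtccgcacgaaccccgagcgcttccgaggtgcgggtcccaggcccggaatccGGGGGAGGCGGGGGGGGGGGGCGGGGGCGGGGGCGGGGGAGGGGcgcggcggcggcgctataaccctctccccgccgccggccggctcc
HIF1A, chr14:61695363-61695512, + strand: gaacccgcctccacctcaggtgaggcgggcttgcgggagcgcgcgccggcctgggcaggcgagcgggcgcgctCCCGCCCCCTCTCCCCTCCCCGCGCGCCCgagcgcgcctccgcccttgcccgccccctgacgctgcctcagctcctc

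KIT held 2 separate stretches, of 20 and 22 bases with 4 guanine runs each. The PDGFA stretch was 44 bases long with 6 runs, and 38 of its bases were guanines. The HIF1A stretch was 29 bases long with 5 runs, 22 of its bases being guanines on the opposite strand. A match describes the letters of the reference and not a folded structure, and a window without a match says only that these letters are not within it.

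Each library held from 18699929 to 63882077 counts assigned to genes, and the counts were tested with edgeR's quasi-likelihood method in each table separately, over 15882 genes in the A table and 17020 in the B table. A gene was called when its Benjamini-Hochberg adjusted p over all tested genes was under 0.05 and its fold change over 2, and every adjusted p below comes from this test. Levels are CPM, the counts scaled to library size with TMM factors, given per library or as mean ± SD (n = 3). The p-values set a difference between groups against the spread of replicates within groups, estimated in a single fit over all conditions of a table. In bulk RNA a smaller number of expressing cells and less RNA per cell cannot be told apart. The untreated B libraries were shallower (18699929 to 22375644 counts) than the treated ones (33260167 to 43713947) and had more ribosomal RNA counts (0.217% to 0.474% against 0.0163% to 0.0369%), so these differences cannot be told apart from PDS treatment. Of 9 ovarian carcinoma markers 8 or 9 were above 3 counts in every condition, with a summed level of 4850 to 14100 CPM. The summed level of 4 haematopoietic markers was 0.74 to 6.12 CPM with CD3E at 0 in every condition, and in PEO4 B it was 1.57 to 2.56 untreated, 5.55 to 6.12 at 2 h and 1.72 to 2.22 at 6 h, with 5.23 to 5.52 in PEO1 A and 0.74 to 1.47 in PEO4 A. That of 3 endothelial markers was 0.061 to 2.72 CPM, with 1.31 to 2.72 in PEO4 B untreated, 0.408 to 0.764 at 2 h and 0.061 to 0.191 at 6 h and 0.288 to 0.94 across the PEO1BRCA+ libraries. Fibroblast markers, 4 genes including PDGFRB, summed to 32.3 to 36.7 CPM in PEO1 A and 5.7 to 10.8 in PEO4 A, to 13.8 to 29.3 CPM in untreated PEO4 B against 5.14 to 6.83 at 2 h and 2.34 to 3.51 at 6 h of PDS, and to 5.09 to 7.11 CPM in untreated PEO1BRCA+ against 2.89 to 3.41 and 2.64 to 3.44. Their part in the differences below was not tested.

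The members fell into a wide range of levels. Per kilobase of exon, MYC (23.2 to 54.2 CPM per kb across the 8 conditions) and HIF1A (27.8 to 44.2) were the most abundant, and SRC lay at 5.99 to 9.26. VEGFA covered 1.99 to 20.2 and PDGFA 0.0258 to 4.21 CPM per kb, so that these growth factors varied most between conditions. BCL2 stayed between 0.169 and 0.447, and KIT had few counts, at 0.0155 to 0.0644 CPM per kb. HRAS had no counts in 23 of 24 libraries. The plot of levels by library shows all 8 members.

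**Figure D1:**
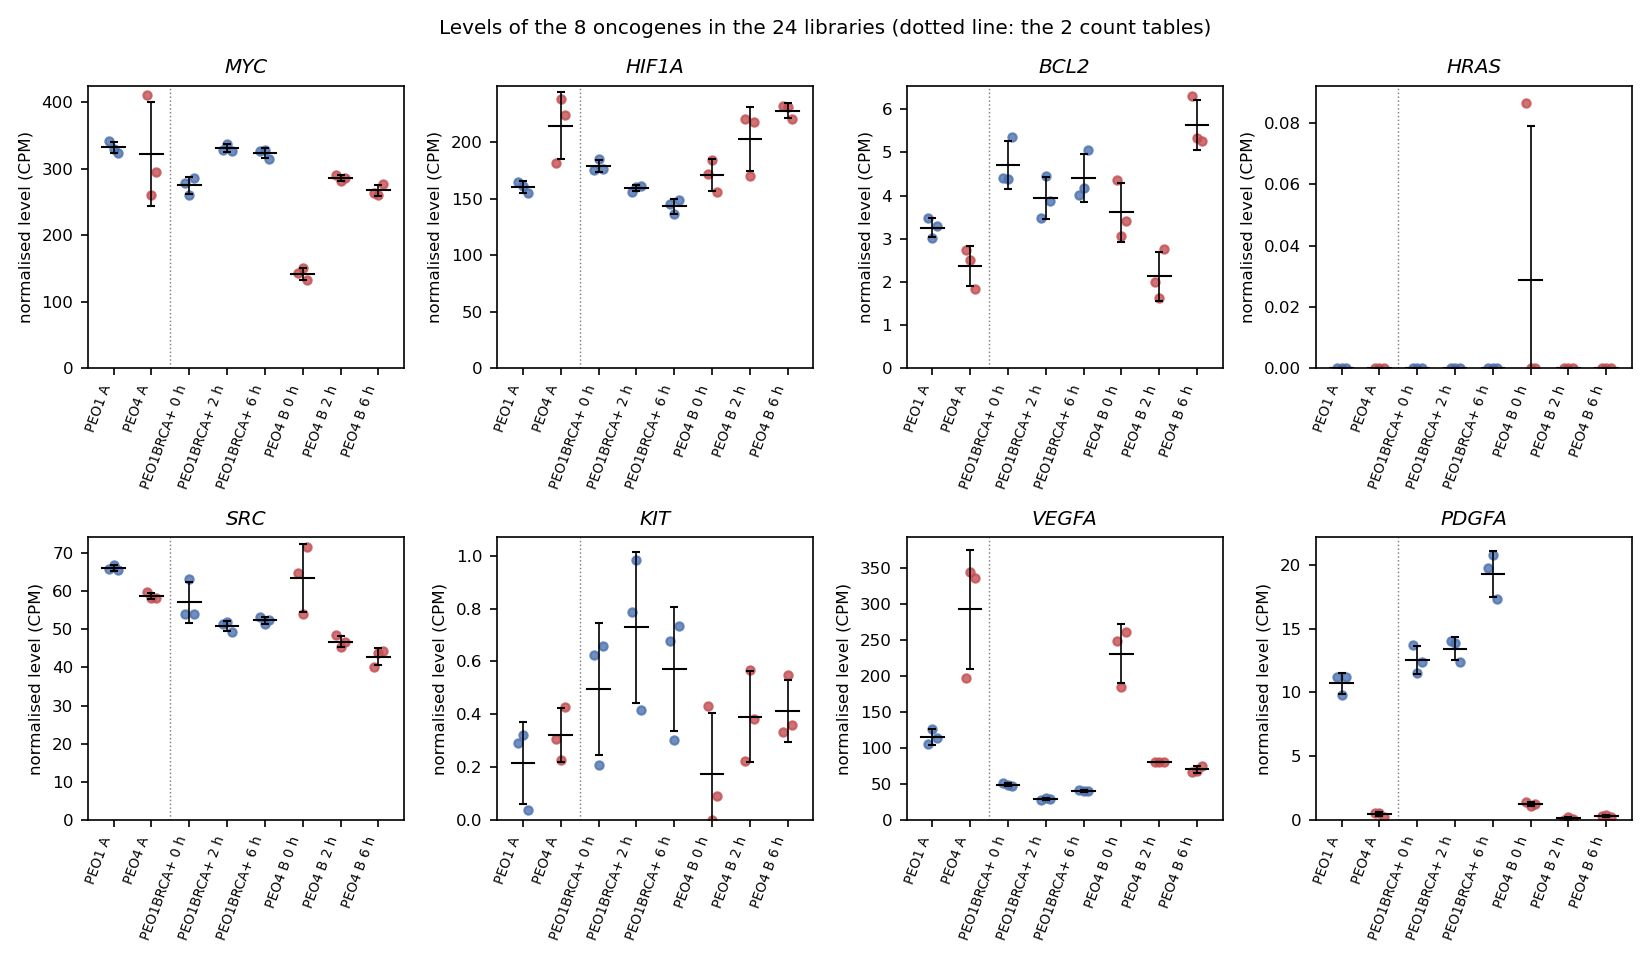
Level of each of the 8 members in the 24 libraries, in CPM on linear axes of their own scale, by condition (blue PEO1 A and PEO1BRCA+, red PEO4 A and PEO4 B); points are libraries, bars are mean ± SD (n = 3), and the dotted line separates the 2 tables. VEGFA was highest in PEO4 A and untreated PEO4 B, PDGFA was lower in every PEO4 library than in any PEO1 library, and MYC was lowest in untreated PEO4 B at 142 CPM.

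HRAS (chr11:532242-535576, - strand, hg38), the small GTPase at the head of the RAF-MEK-ERK cascade, was listed at 0 in 23 libraries and had 2 counts (0.0866 CPM) in replicate 1 of untreated PEO4 B. At these depths 3 counts correspond to 0.047 to 0.16 CPM. All 164 of the 164 windows of 100 bases along its exons also occur on an alternate contig of hg38. The same held for all 634 windows of its neighbour RNH1, a ubiquitously expressed ribonuclease inhibitor, which had 0 counts in all 24 libraries. In the overlapping gene LRRC56, where 67.3% of windows had such a copy, the counts were 4 to 86, and in RASSF7, at 95.1%, they were 184 to 464. The other 7 members had no window with a copy on an alternate contig. The part of these copies in the HRAS value was not tested, and no level or change of HRAS is given here.

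VEGFA (chr6:43770211-43786487, + strand), the ligand that drives endothelial growth through VEGF receptors, was higher in PEO4 than in PEO1 in both pairs and fell with PDS. The libraries of PEO1 A stood at 105, 126 and 114 CPM and those of PEO4 A at 197, 344 and 335 CPM. The groups did not overlap, although replicate 1 of PEO4 A was well below the other 2. The difference was 2.54-fold (log2 1.35, SE 0.213, adjusted p = 0.0012).

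Without treatment, PEO1BRCA+ had 51.1, 48.4 and 46.9 CPM of VEGFA and PEO4 B had 248, 184 and 260 CPM. Every PEO4 B library thus exceeded every PEO1BRCA+ library, by 4.73-fold on average (log2 2.24, SE 0.0899, adjusted p = 1.9e-15). With PDS the PEO4 B libraries dropped to 80.5, 80.7 and 80 CPM at 2 h and 66.6, 68.5 and 75.2 CPM at 6 h. These falls of 2.87-fold (log2 -1.52, SE 0.0858, adjusted p = 1.7e-12) and 3.29-fold (log2 -1.72, SE 0.0866, adjusted p = 1.9e-13) were both called. Most of the decrease was present by 2 h, and the further difference to 6 h was small (log2 -0.20, adjusted p = 0.05) and was lost without any 1 of 5 of the 6 libraries (adjusted p = 0.097 to 0.18).

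In PEO1BRCA+ the VEGFA level also fell by 2 h, to 27.6, 30 and 28.7 CPM (1.7-fold, log2 -0.76, adjusted p = 5.1e-07), and was then 41.9, 39.9 and 39.8 CPM at 6 h. The 6 h level was 1.41-fold above that at 2 h (adjusted p = 0.0016) and 1.2-fold below the untreated level (log2 -0.27, adjusted p = 0.016), the latter not holding without untreated replicate 1 (adjusted p = 0.076) or without 6 h replicate 2 or 3 (adjusted p = 0.06). PEO4 B therefore showed a larger fall than PEO1BRCA+ at both times, the difference between responses being log2 -0.76 (SE 0.124, adjusted p = 5.3e-05) at 2 h and log2 -1.45 (SE 0.124, adjusted p = 5.9e-09) at 6 h. After 6 h of PDS the lines still differed, by 1.73-fold (log2 0.79, adjusted p = 5.2e-08).

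PDGFA (chr7:497258-520700, - strand), the A chain of platelet-derived growth factor, showed the widest separation of the lines among the members. In PEO1 A it was at 11.2, 9.79 and 11.2 CPM and in PEO4 A at 0.555, 0.51 and 0.245 CPM, from 36, 18 and 8 counts. No PEO4 A library came near a PEO1 A library, and the level was 23.4-fold lower (log2 -4.55, SE 0.237, adjusted p = 6.9e-09). The B pair had the same order, with 13.7, 11.5 and 12.4 CPM in untreated PEO1BRCA+ and 1.43, 1.1 and 1.24 CPM in untreated PEO4 B, a 9.88-fold difference (log2 -3.3, SE 0.174, adjusted p = 1.4e-14).

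After 2 h of PDS, the PEO4 B libraries held 1, 9 and 3 PDGFA counts (0.0278, 0.255 and 0.072 CPM), against 33, 22 and 27 counts untreated, with no overlap. The fitted fall was 10.7-fold with a wide interval (log2 -3.41, 95% interval -4.16 to -2.67, adjusted p = 1e-08), and without 2 h replicate 2 it was log2 -4.51. At 6 h there were 12, 12 and 8 counts (0.286, 0.366 and 0.239 CPM), a fall of 4.23-fold (log2 -2.08, SE 0.3, adjusted p = 1.1e-06). The 2 h and 6 h groups overlapped, and their 2.52-fold difference (adjusted p = 0.014) did not hold without 2 h replicate 1 (log2 0.91) or 3 (1.06) or without 6 h replicate 2 (1.18; adjusted p = 0.055 to 0.083), and was log2 2.44 without 2 h replicate 2, against 1.33 with all libraries.

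In PEO1BRCA+ the PDGFA libraries read 14, 13.9 and 12.4 CPM at 2 h and 19.8, 20.8 and 17.3 CPM at 6 h. The 2 h value did not differ detectably from untreated (log2 0.1, adjusted p = 0.52), whereas PDGFA rose 1.54-fold by 6 h (log2 0.62, SE 0.12, adjusted p = 1e-04). PDGFA thus moved in opposite directions in the lines at 6 h, and the difference between responses was log2 -2.71 (SE 0.322, adjusted p = 2.7e-07), after -3.51 (SE 0.383, adjusted p = 1e-07) at 2 h, where it was -4.62 without 2 h replicate 2 of PEO4 B. Between the treated lines the fitted gap reached 113-fold at 2 h and 64.4-fold at 6 h, both resting on the few PEO4 B counts. Without 2 h replicate 2 of PEO4 B the gap at 2 h was log2 -7.92 against -6.82 with it.

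KIT (chr4:54657957-54740715, + strand), the stem cell factor receptor, was near the limit of detection throughout, with 0 to 38 counts per library and group means of 0.175 to 0.729 CPM. The untreated PEO4 B libraries had 10, 0 and 2 counts, so 1 library carried nearly all of the signal. No comparison of KIT passed the test; its response in PEO4 B was log2 1.07 at 2 h with a 95% interval of -0.36 to 2.49 (adjusted p = 0.18). Without replicate 1 of untreated PEO4 B the value became log2 2.92 (adjusted p = 0.012) at 2 h and 3.0 (adjusted p = 0.0086) at 6 h, and the untreated difference between lines became -3.24 (adjusted p = 0.0053) from -1.39 (adjusted p = 0.087; 0.047 with DESeq2, and 0.031 without PEO1BRCA+ replicate 2). The line difference at 2 h (log2 -0.91, adjusted p = 0.095) passed with only the compared groups in the fit (adjusted p = 0.043) and without 2 h replicate 3 of PEO1BRCA+ (0.04) or 2 h replicate 2 of PEO4 B (0.05). The depth does not allow a statement on KIT.

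SRC (chr20:37344699-37406050, + strand), a membrane-linked tyrosine kinase, showed no stable difference between the lines before treatment. PEO1 A had 65.9, 67 and 65.5 CPM and PEO4 A had 59.8, 58.3 and 58.2 CPM. These groups did not overlap, but the difference of log2 -0.17 (adjusted p = 0.046) did not hold under any other scaling, with DESeq2 (adjusted p = 0.07) or without any 1 of 5 of the 6 libraries (adjusted p = 0.078 to 0.14). Untreated PEO1BRCA+ libraries had 54, 63.2 and 54 CPM and PEO4 B libraries 64.9, 53.9 and 71.7 CPM, which overlapped (log2 0.15, adjusted p = 0.083; 0.26 and adjusted p = 0.0019 without PEO4 B replicate 2, and 0.24 and 0.015 without PEO1BRCA+ replicate 2).

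With PDS, SRC fell in PEO4 B to 48.4, 45.4 and 46.6 CPM at 2 h and 40.2, 43.8 and 44.3 CPM at 6 h, below all untreated libraries. The falls were 1.36-fold (log2 -0.44, SE 0.0773, adjusted p = 2.2e-05) and 1.49-fold (log2 -0.57, SE 0.0777, adjusted p = 4.5e-07), under the fold of 2 used for a call. In PEO1BRCA+ it was 51.3, 51.8 and 49.3 CPM at 2 h and 53.3, 51.3 and 52.4 CPM at 6 h, and neither difference passed the test (log2 -0.17, adjusted p = 0.071, and -0.13, adjusted p = 0.18). The 2 h value passed with only the compared groups in the fit (-0.17, adjusted p = 0.019), and both passed with library totals (log2 -0.32 and -0.27) and with upper-quartile scaling (-0.25 and -0.21). The responses differed between lines at 6 h (log2 -0.45, SE 0.11, adjusted p = 0.0016). At 2 h the difference was log2 -0.27 (adjusted p = 0.052), and it passed with DESeq2 (-0.29, adjusted p = 0.043). It also passed with DESeq2 size factors and with a minimum of 1 CPM in 3 libraries (both -0.29, adjusted p = 0.038). Without untreated replicate 2 of PEO1BRCA+ it was -0.36 (adjusted p = 0.014), and without untreated replicate 2 of PEO4 B -0.38 (adjusted p = 0.0018). After 6 h SRC was 1.22-fold lower in PEO4 B than in PEO1BRCA+ (adjusted p = 0.0016).

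MYC (chr8:127735434-127742951, + strand), the transcription factor that promotes ribosome production and cell growth, rose with PDS in both B lines, and more in PEO4 B. Untreated PEO4 B libraries had 143, 150 and 132 CPM, those at 2 h 290, 282 and 286 CPM, and those at 6 h 264, 261 and 277 CPM. Untreated and treated libraries were far apart and the replicates close together. MYC rose 2.02-fold at 2 h (log2 1.02, SE 0.0547, adjusted p = 6.3e-14), which was called, and 1.89-fold at 6 h (log2 0.92, SE 0.0547, adjusted p = 2.8e-13), just under the fold of 2. The 2 h value lay at that limit and ranged from log2 0.89 to 1.06 across the alternative fits, each with an adjusted p under 0.05.

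In PEO1BRCA+ the MYC libraries had 278, 260 and 286 CPM untreated, 328, 337 and 327 CPM at 2 h and 327, 328 and 314 CPM at 6 h. The treated libraries again lay above all the untreated ones. MYC rose 1.2-fold at 2 h (log2 0.27, SE 0.0537, adjusted p = 0.00018) and 1.18-fold at 6 h (log2 0.23, adjusted p = 0.00072), the 6 h value not holding with library totals (log2 0.09, adjusted p = 0.13). The increase in PEO4 B was larger, by log2 0.75 (SE 0.0764, adjusted p = 3.7e-08) at 2 h and 0.68 (SE 0.0765, adjusted p = 1e-07) at 6 h.

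Before treatment MYC was 1.94-fold lower in PEO4 B than in PEO1BRCA+ (log2 -0.96, SE 0.0549, adjusted p = 7.3e-14), and after PDS the difference was 1.16-fold at 2 h (log2 -0.21, adjusted p = 0.0012) and 1.21-fold at 6 h (log2 -0.27, adjusted p = 8e-05). The A pair had 341, 330 and 324 CPM in PEO1 A and 410, 260 and 295 CPM in PEO4 A. The PEO4 A libraries spread on both sides of the PEO1 A libraries, and no difference was detected (log2 -0.04, 95% interval -0.37 to 0.28, adjusted p = 0.82). Without replicate 1 of PEO4 A the value was log2 -0.25 (adjusted p = 0.0048). Untreated PEO4 thus stood at 322 ± 78.6 CPM in the A table and 142 ± 9.41 CPM in the B table; the tables were scaled separately and this was not tested.

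HIF1A (chr14:61695513-61748258, + strand), the oxygen-regulated subunit of the hypoxia-inducible factor, overlaps the antisense genes HIF1A-AS1, HIF1A-AS2 and HIF1A-AS3, whose reads may not be separable without strand. It moved in opposite directions in the B lines. In PEO4 B it was 172, 184 and 156 CPM untreated, 220, 170 and 218 CPM at 2 h and 232, 231 and 220 CPM at 6 h. The 2 h group overlapped the untreated group through its replicate 2, whereas the 6 h group lay above it. HIF1A rose 1.19-fold at 2 h (log2 0.25, adjusted p = 0.0047), which did not hold with library totals (log2 0.12, adjusted p = 0.14) or with only those groups in the fit (0.23, adjusted p = 0.082), and 1.34-fold at 6 h (log2 0.42, SE 0.0741, adjusted p = 2.1e-05).

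In PEO1BRCA+ HIF1A was at 175, 185 and 176 CPM untreated, 156, 160 and 161 CPM at 2 h and 145, 136 and 149 CPM at 6 h. Both treated groups lay below the untreated one. The 6 h level had fallen 1.25-fold (log2 -0.32, SE 0.0742, adjusted p = 0.00083), and the 2 h value was log2 -0.17 (adjusted p = 0.062; it passed with library totals, -0.32, with upper-quartile scaling, -0.25, with a minimum of 1 CPM in 3 libraries, -0.18, and with only the compared groups in the fit, -0.17). The responses of the lines differed by log2 0.42 (SE 0.105, adjusted p = 0.0028) at 2 h and 0.74 (SE 0.105, adjusted p = 3.6e-06) at 6 h. In the untreated B pair no difference was detected (log2 -0.07, adjusted p = 0.44), and PEO4 B was 1.59-fold above PEO1BRCA+ after 6 h (log2 0.67, adjusted p = 1.5e-08).

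In the A pair HIF1A was at 165, 161 and 155 CPM in PEO1 A and 181, 238 and 224 CPM in PEO4 A. The groups did not overlap, and HIF1A was 1.34-fold higher in PEO4 A (log2 0.42, SE 0.0958, adjusted p = 0.0022).

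BCL2 (chr18:63123346-63320090, - strand), which blocks the release of cytochrome c from mitochondria, had a response that turned over time in PEO4 B. The libraries had 4.37, 3.06 and 3.41 CPM untreated, 2, 1.64 and 2.76 CPM at 2 h (72, 58 and 115 counts) and 6.3, 5.34 and 5.27 CPM at 6 h (264, 175 and 176 counts). The 3 groups did not overlap, with 2 h lowest and 6 h highest. BCL2 fell 1.69-fold by 2 h (log2 -0.75, SE 0.187, adjusted p = 0.001) and then rose 2.62-fold from 2 to 6 h (log2 1.39, SE 0.169, adjusted p = 1.7e-07), ending 1.56-fold above untreated cells (log2 0.64, SE 0.171, adjusted p = 0.0019).

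In PEO1BRCA+ BCL2 was at 4.41, 4.38 and 5.36 CPM untreated, 3.49, 4.45 and 3.88 CPM at 2 h and 4.01, 4.18 and 5.05 CPM at 6 h. These groups overlapped and no difference passed the test (log2 -0.25, adjusted p = 0.22, and -0.1, adjusted p = 0.66), apart from the 2 h value with library totals (-0.4, adjusted p = 0.049). The responses differed at 6 h (log2 0.73, SE 0.24, adjusted p = 0.014) but not detectably at 2 h (-0.5, adjusted p = 0.12; -0.75 and 0.021 without 2 h replicate 3 of PEO4 B). PEO4 B was 1.84-fold below PEO1BRCA+ at 2 h (log2 -0.88, adjusted p = 8.3e-05), and at 6 h the order had turned (log2 0.36, adjusted p = 0.048), a value that was lost under each other scaling, with DESeq2 (0.35, adjusted p = 0.06) and without any 1 of 5 of the 6 libraries (adjusted p = 0.05 to 0.2).

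Untreated, BCL2 did not pass the test in either pair. The A pair had 3.47, 3.02 and 3.29 CPM in PEO1 A and 2.74, 2.52 and 1.84 CPM in PEO4 A (log2 -0.45, adjusted p = 0.087; -0.57 and 0.046 without PEO4 A replicate 1), and the B difference was log2 -0.38 (adjusted p = 0.068; -0.54 and 0.022 without PEO4 B replicate 1).

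**Figure D2:**
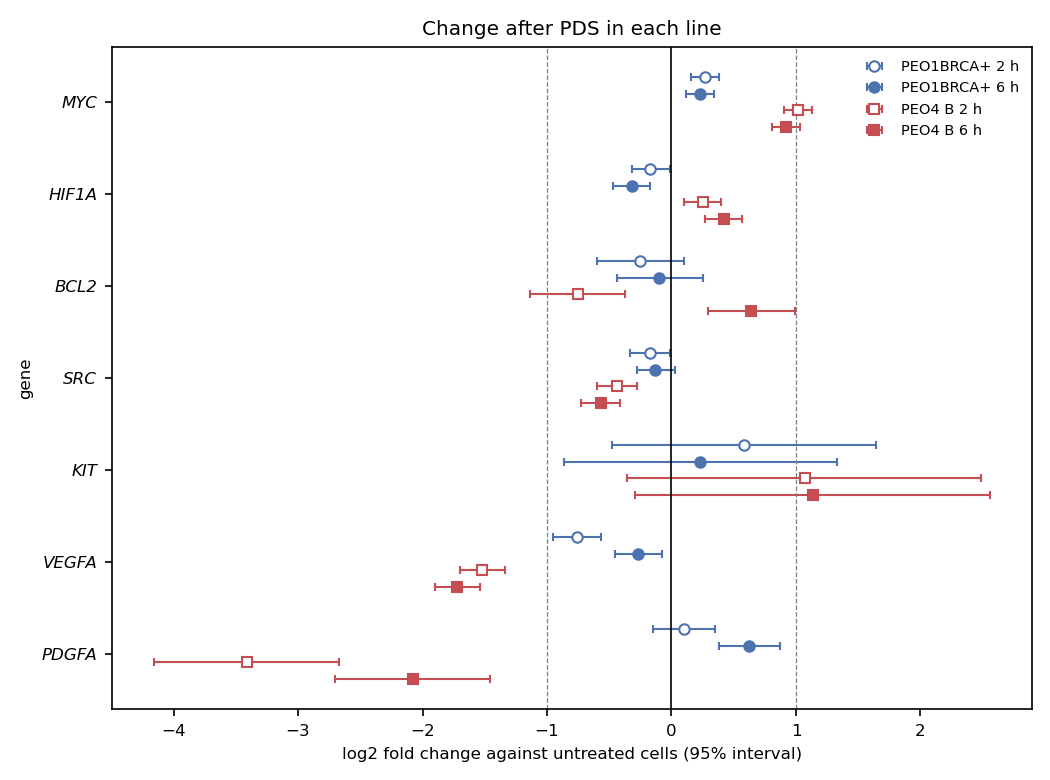
Response of each tested member to PDS against untreated cells of the same line, as log2 fold change with 95% interval from edgeR, for PEO1BRCA+ and PEO4 B at 2 and 6 h, with dashed lines at a fold of 2. In PEO4 B, MYC lay above 0 and VEGFA, SRC and PDGFA below 0 at both times, while BCL2 was below at 2 h and above at 6 h; in PEO1BRCA+ no member passed a fold of 2.

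Counted over the members, PDS at 2 h changed 6 of the 7 tested in PEO4 B by adjusted p alone and 3 with a fold over 2 (MYC, VEGFA and PDGFA), where 65.3% and 17.4% of all tested genes passed the same rules. At 6 h these were 6 and 2 (VEGFA and PDGFA), against 69.8% and 22.6% of all genes, and between 2 and 6 h 3 and 2 (BCL2 and PDGFA), against 60.1% and 12%. In PEO1BRCA+ 2 of the 7 changed at 2 h and 4 at 6 h by adjusted p alone, against 52.6% and 53% of all genes, and no member was called with a fold over 2, against 7.57% and 8.13%. From 2 to 6 h 2 of the 7 differed, against 6.94%, and none was called, against 0.17%. With 7 genes a single member makes up a large share, and these counts were not tested against those of all genes. The responses of the lines differed for 4 of 7 members at 2 h (37.3% of all genes) and 6 of 7 at 6 h (47.4%), of which 1 (11%) and 2 (14.8%) exceeded a fold of 2. The 2 h and 6 h comparisons of a line share their untreated libraries.

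Between the lines, 4 of 7 members differed in the A pair (61.6% of all tested genes), 3 in the untreated B pair (68.6%), 5 at 2 h (72.9%) and 6 at 6 h (68.6%). With a fold over 2 these were 2 (25.8% of all genes), 2 (24.8%), 2 (26.5%) and 1 (23%). VEGFA and PDGFA were the members called in each of the first 3, and PDGFA alone after 6 h of PDS. The A and B pairs are separate libraries, and the 3 B comparisons share a fit but no libraries.

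**Figure D3:**
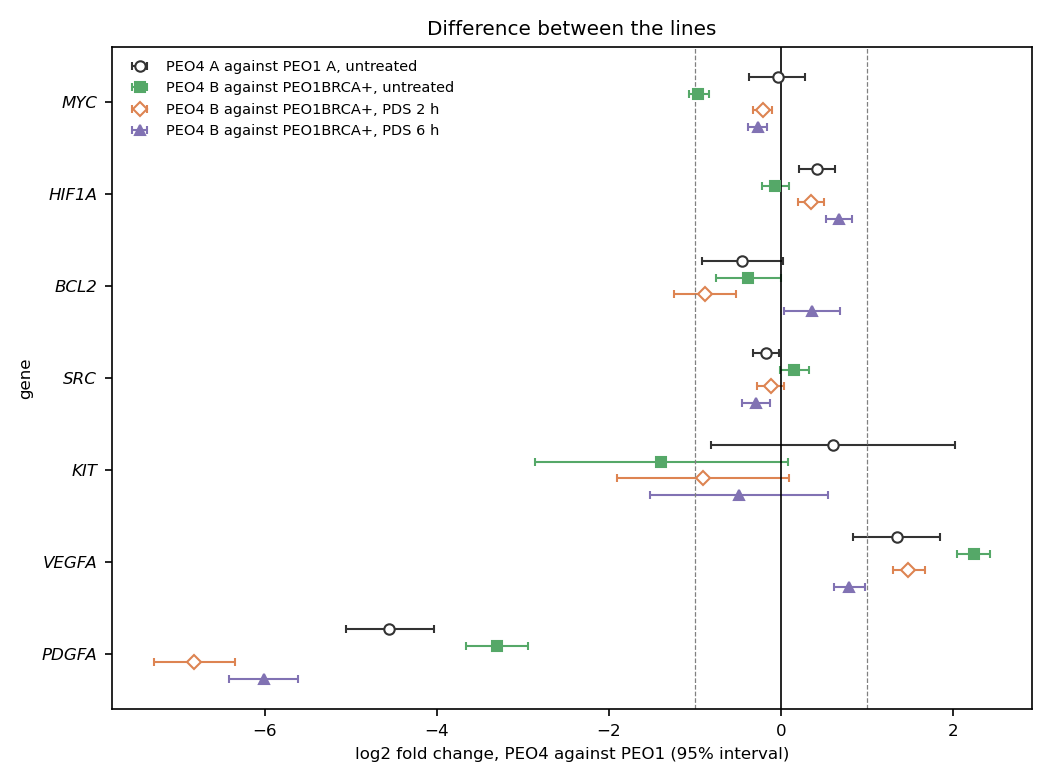
Difference of each tested member between PEO4 and PEO1 as log2 fold change with 95% interval from edgeR, for PEO4 A against PEO1 A and for PEO4 B against PEO1BRCA+ untreated and after 2 and 6 h of PDS, with dashed lines at a fold of 2. VEGFA was higher and PDGFA lower in PEO4 in all 4 comparisons, and the MYC difference of -0.96 in untreated B cells narrowed to -0.21 and -0.27 with PDS.

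The genes around each member were followed in lists of pathway genes, counted by adjusted p. Where a count names a fold over 2, both the adjusted p and that fold were required. For scale, of all tested genes 33.3% rose and 32% fell in PEO4 B at 2 h and 34.6% rose and 35.2% fell at 6 h, and past a fold of 2 these were 6.4% and 11% at 2 h and 6.26% and 16.3% at 6 h. In PEO1BRCA+ 26.4% rose and 26.2% fell at 2 h and 27% rose and 26% fell at 6 h, and past a fold of 2 these were 1.18% and 6.39% at 2 h and 1.29% and 6.83% at 6 h. Of 10 MYC target genes, 9 rose and none fell in PEO4 B at 6 h (3 with a fold over 2), with a median log2 change of 0.85 against -0.03 for all tested genes. ODC1, the first enzyme of polyamine synthesis, went from 165 ± 45.3 CPM through 262 ± 34.2 CPM at 2 h to 477 ± 1.24 CPM at 6 h (log2 1.53, adjusted p = 4.7e-07), and FBL, a nucleolar RNA methyltransferase, rose by log2 1.31. At 2 h 8 rose and 2 fell (median 0.32 against 0). In PEO1BRCA+ 7 rose and none fell at 2 h (median 0.29) and 6 rose and 1 fell at 6 h (median 0.36), FBL being the single one past a fold of 2 (log2 1.05 and 1.12). The response of 9 targets was higher in PEO4 B than in PEO1BRCA+ at 6 h (SRM by log2 1.23, ODC1 by 1.49), where 24.4% of all genes responded higher and 23% lower. In untreated B cells, 7 of the 10 were lower and 1 higher in PEO4 B (34.6% and 34% of all genes), NOP56 by log2 -1.29.

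MYC partners and antagonists moved less uniformly. In PEO4 B at 6 h 5 of 10 tested rose and 5 fell, and the MYC antagonists MXD4 (log2 -1.6) and MXI1 (-1.01) were the 2 past a fold of 2. MYCL, a paralogue of MYC, fell by log2 -1.32 at 2 h. No gene of the network passed that fold in PEO1BRCA+.

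Some HIF1 target genes rose in both lines at 6 h (LDHA, PGK1 and BNIP3) and others, such as CA9 and NDRG1, rose in PEO1BRCA+ and fell in PEO4 B. In PEO4 B, where HIF1A rose, 6 of 10 rose and none fell at 2 h, but at 6 h 4 rose and 6 fell (median log2 -0.33), including CA9, a membrane carbonic anhydrase (log2 -2.6), and NDRG1 (-1.38). In PEO1BRCA+, where HIF1A fell by 6 h, 7 rose at 2 h and 8 at 6 h with none falling (medians 0.41 and 0.63), CA9 by log2 2.71 and the mitophagy gene BNIP3 by 1.01. The 6 h responses differed for 8 targets toward lower and 1 toward higher values in PEO4 B. CA9 differed by log2 -5.31, from 2 to 4 counts per PEO4 B library at 6 h, and NDRG1 by -1.92. Among HIF subunits and regulators in PEO4 B, EPAS1, which encodes the HIF-2 alpha subunit, fell by log2 -1.65 at 2 h and -2.25 at 6 h, and ARNT2, a dimerisation partner, by -1.91 and -2.81. Both also fell in PEO1BRCA+, EPAS1 by log2 -0.76 at 2 h and -0.84 at 6 h and ARNT2 by -0.6 and -1.07.

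Of the ligands and receptors of the KIT, PDGF and VEGF families, 3 of the 11 tested were higher and 4 lower in PEO4 A than in PEO1 A with a fold over 2 (25.8% of all genes were called), and 4 of 13 were higher and 4 lower in untreated PEO4 B than in PEO1BRCA+ (24.8%). VEGFC, a ligand of lymphatic growth, was higher in PEO4 by log2 4.46 in the A pair and 4.04 in the untreated B pair, while the co-receptor NRP1 was lower by log2 -6.65 and -4.99. With PDS in PEO4 B, VEGFC fell from 34.1 to 8.25 CPM at 2 h (log2 -2.05) and NRP2 fell (-1.79), whereas NRP1 rose from 1.3 to 17.1 CPM (log2 3.77) and KITLG, the ligand of KIT, from 0.618 to 1.4 CPM (1.19). At 6 h 2 of the 13 tested had risen and 4 fallen past a fold of 2. None was called in PEO1BRCA+ at either time.

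In the BCL2 family, 16 genes, 3 rose and 2 fell past a fold of 2 in PEO4 B at 2 h and none rose and 4 fell at 6 h. The 8 BH3-only genes of the list, which promote apoptosis, moved both ways in PEO4 B by adjusted p: 4 rose and 3 fell at 2 h, and 3 rose and 5 fell at 6 h. HRK (log2 -1.88 at 2 h and -2.48 at 6 h) and BMF (-1.38 and -1.53) fell at both times, BBC3 fell at 6 h (-1.16) and PMAIP1 rose at both times (1.06 and 0.91). BCL2A1 was called in both directions, at log2 1.34 at 2 h (SE 0.564) and -2.51 at 6 h (SE 0.949). BAX, which permeabilises mitochondria, rose (0.79 and 0.91). BCL2L10, a relative of BCL2, rose by log2 1.75 at 2 h in PEO4 B and fell by -1.89 in PEO1BRCA+, from 2 to 7 and 17 to 31 counts untreated. In the RAS-RAF-MEK-ERK list of 14 genes no gene passed a fold of 2 with PDS in either line; by adjusted p alone 7 rose and 3 fell in PEO4 B at 6 h and 4 rose and 5 fell in PEO1BRCA+. NF1, which inactivates RAS, was lower in PEO4 in both untreated pairs, by log2 -1.24 and -1.25.

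Of 7 tested SRC family kinases and regulators, 4 rose and 3 fell in PEO4 B at 2 h and 5 rose and 2 fell at 6 h by adjusted p, and at both times 1 rose and 2 fell with a fold over 2. FYN fell from 94.7 CPM to 16.7 at 2 h and 14.4 at 6 h (log2 -2.51 and -2.72), and PAG1, an adaptor that recruits the SRC inhibitor CSK, fell by log2 -3.97 and -3.11. LCK rose by log2 2.58 and 2.22, from 4 to 29 counts in the untreated libraries. In PEO1BRCA+ none of the 7 tested passed a fold of 2. The plot of pathway genes gives every tested gene of these lists.

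**Figure D4:**
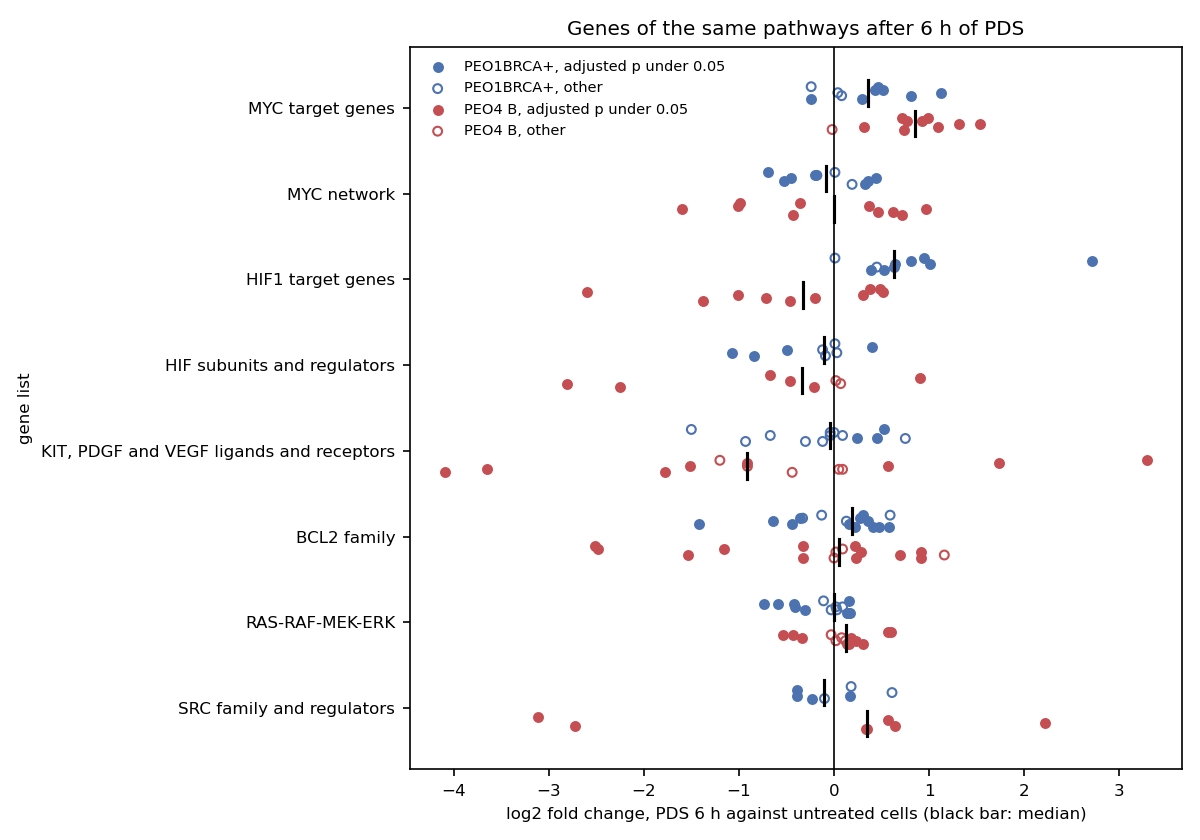
Log2 fold change at 6 h of PDS against untreated for each tested gene of the pathway lists, in PEO1BRCA+ and PEO4 B; each point is a gene, filled where the adjusted p was under 0.05, and the bar is the list median. The MYC target genes lay at a median of 0.36 in PEO1BRCA+ and 0.85 in PEO4 B, and the HIF1 target genes at 0.63 and -0.33.

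Among other genes with a published promoter G4, none of MYB, TERT, RET, PDGFRB and RB1 was called in PEO1BRCA+ with PDS. PDGFRB was past a fold of 2 at 6 h, but its adjusted p was not under 0.05 (log2 -1.5, SE 0.706, adjusted p = 0.077). In PEO4 B RET, a receptor tyrosine kinase, fell by log2 -1.24 at 2 h and -4.0 at 6 h, from 42 to 63 counts untreated to 3 to 6 at 6 h, and TERT, the catalytic subunit of telomerase, rose by log2 1.03 at 6 h. Of 8 proteins reported to bind promoter G4s, none passed a fold of 2 in any of the 12 comparisons. By adjusted p alone 6 rose and 1 fell at 6 h in both lines, with medians of log2 0.31 in PEO1BRCA+ and 0.28 in PEO4 B. NCL (nucleolin), which also belongs to the MYC target list, rose by log2 0.43 and 0.77, NME2 by 0.22 and 0.73, the helicase DHX36 by 0.5 and 0.61, and SP1 fell by 0.32 and 0.56 on the log2 scale.

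Genes with the guanine pattern in a promoter window were set beside those without it as a description. A further 4575 tested genes of the B table, among them MYC, VEGFA and SRC, had no window and are in neither group. In PEO4 B at 6 h 15.3% of the 5029 tested genes with the pattern fell and 6.42% rose past a fold of 2, against 13.7% and 6.01% of the 7416 without it. In PEO1BRCA+ 5.91% fell and 0.597% rose, against 4.98% and 1.48%. The median log2 changes were -0.04 and 0.05 in PEO4 B and -0.05 and 0.05 in PEO1BRCA+.

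The genes whose profile over the 18 B libraries was most like that of a member were found by Pearson correlation of log2 CPM. These 18 points share lines and treatments, so the values describe the profile alone. For MYC they were THBS1 (0.991), RCL1 (0.98) and CD44 (0.979), for VEGFA AP5B1 (0.989), PITX1 (0.983) and PIGO (0.981), for PDGFA they included PPP2R5B (0.991) and OXTR (0.989), and for BCL2 CLASP2 (0.949), PBRM1 (0.941) and QSER1 (0.936). BCL2, the member whose level turned between 2 and 6 h, had the weakest nearest neighbour of these 4.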

How the data were processed

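PEO1 and PEO4 RNA was sequenced in 24 libraries, 3 per condition. The authors deposited raw gene counts in 2 tables, made per the submitters' processing notes with FastQC, fastp, STAR and featureCounts on hg38; their versions, the annotation, the strand setting and the treatment of reads with several alignments are not given in the sources used here. RNA came from column extraction with DNase I, and the A libraries were prepared with a directional poly(A) kit; no kit was stated for the B libraries. Lines without a gene name (2 in the A table, 1 in the B table) were left out.

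Each table was analysed alone with edgeR 4.0.16 (R 4.3.3, limma 3.58.1): filterByExpr (minimum count 10, minimum total 15), TMM scaling, robust glmQLFit with 1 coefficient per condition, glmQLFTest, and Benjamini-Hochberg adjustment over all tested genes. Intervals are 95%. Levels are CPM, divided by exon-union length for CPM per kb, and profiles used log2 CPM with a prior count of 4. The test was also run on simulated data, of which no result is given here. Replicates of every group differed by more than sampling noise (chi-square per degree of freedom of at least 2.13). Alternatives were other scalings, filters, call rules and fits, DESeq2 1.42.0, a replicate block and leaving out each library.

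The members, the gene lists and the markers were chosen with earlier results of these data known. Named genes are the 8 members and, from each list and comparison, at most 2 called genes in each direction with the largest log2 fold change, plus the 3 most similar profiles of each member called with PDS; for the list of G4-binding proteins, where none was called, NCL, NME2, DHX36 and SP1 were named after their values were seen, as were PMAIP1, BAX, BBC3, the BH3-only grouping, LDHA, PGK1 and the values of EPAS1 and BMF beside those the rule gives, and the motif counts carry no test. Some items that this rule names are not reported here.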

Additional observations from a re-analysis of the deposited data

Results flagged for a closer look

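The response to PDS differed between PEO4 B and PEO1BRCA+, by a test of the difference itself (edgeR, adjusted over all genes), for MYC, VEGFA, HIF1A and PDGFA at 2 h and for MYC, VEGFA, BCL2, HIF1A, SRC and PDGFA at 6 h. At 2 h the difference, as PEO4 B minus PEO1BRCA+, was log2 0.75 for MYC, -0.76 for VEGFA, 0.42 for HIF1A and -3.51 for PDGFA (-4.62 without 2 h replicate 2 of PEO4 B). At 6 h it was 0.68 for MYC, -1.45 for VEGFA, 0.73 for BCL2, 0.74 for HIF1A, -0.45 for SRC and -2.71 for PDGFA. PDGFA and HIF1A at 6 h moved in opposite directions in the lines, and MYC and VEGFA in the same direction with a larger change in PEO4 B.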

How the results depend on the processing

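With the adjusted p alone in place of the adjusted p with a fold over 2, the members called were 4 in the A pair, 5 and 6 between the B lines at 2 and 6 h, 2, 4 and 2 in PEO1BRCA+ (2 h, 6 h and 6 h against 2 h), 6 and 6 in PEO4 B at 2 and 6 h, and 4 and 6 for the difference in response. With only the compared groups in the fit, 1 member was called between 2 and 6 h in PEO4 B. Leaving out each library gave 1 to 2 members for that comparison, 2 to 4 for PEO4 B at 2 h, 2 to 3 for the untreated B lines, the B lines at 2 h, PEO4 B at 6 h and the 6 h difference in response, and the same count in the other 6 comparisons; the count of 4 in PEO4 B at 2 h came without untreated replicate 1, through KIT, and that of 2 without untreated replicate 3, where MYC was at log2 0.97. The sign turned, without passing the test, for MYC in the A pair (0.02 with upper-quartile scaling, 0.09 and 0.02 without PEO4 A replicate 2 and 3), PDGFA in PEO1BRCA+ at 2 h (-0.05 with library totals), KIT in PEO1BRCA+ at 6 h (-0.15 without untreated replicate 2), BCL2 in PEO1BRCA+ at 6 h (0.02 without untreated replicate 3), the KIT difference in response at 2 h (-0.05 without untreated PEO4 B replicate 2) and KIT in PEO4 B between 2 and 6 h (-0.19 without 2 h replicate 1, -0.17 without 6 h replicate 2). Over the libraries left out in turn these values ran from -0.25 to 0.09 for MYC, -0.15 to 0.54 for KIT in PEO1BRCA+, -0.05 to 2.33 for the KIT difference in response and -0.19 to 0.41 for KIT in PEO4 B. Same-numbered replicates did not deviate together (correlations -0.185 to 0.16), and with a replicate block the count of members called stayed at 2 in the A pair and was the same in all 12 comparisons; the single member value it moved past the threshold was SRC in the A pair (-0.17, adjusted p = 0.077). Library totals moved the median log2 change of all genes by -0.13 to -0.16 in the comparisons of PDS with untreated cells. Counts of called genes in the pathway lists were flagged as moved in 47 leave-one-out values and not in 793. The flag was set for 9 counts with a minimum of 1 CPM in 3 libraries (111 not), 8 with library totals (112 not) and 7 with upper-quartile scaling (113 not). With the adjusted p alone it was set for 106 and not for 14. Small shifts, such as from 2 to 3 members, were not flagged. Depth limits KIT and PDGFA in treated PEO4 B, which have few counts.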
